A study of Mus musculus with 6 samples.

Results

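Replication-dependent histone genes are the clustered genes that supply histone proteins to newly made DNA. They were taken here as every row of the count tables whose symbol starts with Hist1h, Hist2h, Hist3h or Hist4h, which gave 68 of 23420 gene rows. By histone class there were 6 H1, 18 H2A, 19 H2B, 12 H3 and 13 H4 rows. One of the H2B rows, Hist3h2bb-ps, is a pseudogene. By location, 54 carried the Hist1 name, 10 the Hist2 name, 3 the Hist3 name and 1 the Hist4 name.

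The study sequenced RNA from dendritic cells freshly taken from the mouse spleen, in 3 libraries of genotype TBK1-DKO and 3 of wild type (WT). TBK1 is a kinase that acts downstream of innate nucleic acid sensors. All animals were C57BL/6, and their age is recorded as 10 weeks among the sample characteristics but as 8 weeks in the protocol. The sources used here do not spell out DKO, and they give neither the alleles, nor any Cre driver, nor how the cells were purified, nor whether a library was 1 animal or a pool. The p-values below therefore cover the spread among libraries, which may be technical.

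Core histones (H2A, H2B, H3 and H4) form the protein spool around which DNA is wound, and H1 binds the linker between spools. In dividing cells the mRNAs of the clustered genes are made in S phase and end not in a poly(A) tail but in a short stem-loop, which SLBP binds and the U7 small nuclear ribonucleoprotein helps to cut. Some of the same genes also give polyadenylated transcripts when cells leave the cell cycle or differentiate. A library made by poly(A) selection therefore records the tailed forms and misses most of the others. The labels name total RNA as the starting material, the design text speaks of mRNA, and neither states whether poly(A) selection or ribosomal RNA removal was used.

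The stem-loop was read from the GENCODE M21 transcripts of the GRCm38 assembly, the assembly also called mm10, because it separates the transcript models that the counts of each member could draw on. A match to GGNNCTTTTCAGNGCC, searched on the transcript strand after the coding part, was found in 33 members. All 26 matches outside the H4 class read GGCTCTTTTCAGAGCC, and all 7 matches in the H4 class read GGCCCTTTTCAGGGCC. Windows of 27 bases around the stem-loop are shown for 4 members of the other classes and 2 of the H4 class that the results below turn on, 5′ to 3′ on the transcript strand, with the 16 bases of the stem-loop in capitals. They lie at chr13:23739507-23739533 (+) for Hist1h1c, chr11:58955167-58955193 (+) for Hist3h2a, chr13:23571838-23571864 (+) for Hist1h2bg, chr11:58949344-58949370 (+) for Hist3h2ba, chr13:23581945-23581971 (+) for Hist1h4d and chr6:136803992-136804018 (-) for Hist4h4.
Hist1h1c: caaaaGGCTCTTTTCAGAGCCaccact
Hist3h2a: ccaaaGGCTCTTTTCAGAGCCacccac
Hist1h2bg: ccaaaGGCTCTTTTCAGAGCCacccat
Hist3h2ba: ccaaaGGCTCTTTTCAGAGCCaccttc
Hist1h4d: ccaaaGGCCCTTTTCAGGGCCactacc
Hist4h4: acaaaGGCCCTTTTCAGGGCCcacaaa

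Gene reads numbered 45018389 to 47349648 in the TBK1-DKO libraries and 31077585 to 36145508 in the WT libraries. Within TBK1-DKO, libraries 1 and 3 differed little (2.40, the chi-square of their gene counts divided by its degrees of freedom), while library 2 stood apart from both (36.1 and 36.2). Within WT, libraries 2 and 3 were close (2.58), and library 1 stood apart (12.6 and 14.1). WT 1 was the lowest of all 6 libraries for 18 of the 33 members that could be tested, and TBK1-DKO 2 the highest for 15. The shares over all genes were not counted, so this is not shown to be particular to the histone genes. Of the marker lists checked, dendritic cell markers were abundant in every library, at 10540 to 12330 counts per 1000000 reads (CPM) in sum, with 3 of 15 called higher and 5 lower. Markers of other cells moved with genotype: 11 of 11 tested neutrophil, 8 of 8 erythroid, 8 of 9 plasma cell and 6 of 8 progenitor markers were called higher in TBK1-DKO, and 4 of 9 B cell, 6 of 9 T cell, 7 of 8 NK cell and 7 of 9 macrophage markers lower. A gene is called at an edgeR adjusted p under 0.05. Of all genes tested, 13.7% were called higher and 9.90% lower. Summed levels were 5767 to 6652 CPM in TBK1-DKO against 2379 to 2656 in WT for the neutrophil list and 3084 to 3246 against 1813 to 2035 for the erythroid list, in which Hba-a2 was at 0 reads. They were 2167 to 2345 against 1404 to 1564 CPM for plasma cells, 376 to 400 against 323 to 338 for progenitors, 3040 to 3152 against 3607 to 3755 for B cells, 424 to 442 against 498 to 509 for T cells, 231 to 248 against 307 to 343 for NK cells and 2811 to 3120 against 3871 to 4278 for macrophages. The part these cells have in the histone values was not tested, and fewer cells of a type cannot be told apart from less RNA per cell in such bulk samples.

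Histone reads were few and came mostly from a small number of genes. The 68 members together held 0.0176% to 0.0208% of the gene reads of a library. Of them, 57 had at least 1 read in some library and 11 had 0 reads in all 6, where a count of 0 allows up to 3 reads, or 0.0635 to 0.0954 CPM depending on the library. At least 1 read was found for 54, 57 and 54 members in TBK1-DKO 1, 2 and 3 and for 45, 53 and 52 in WT 1, 2 and 3. At least 10 reads were found for 35, 37 and 35 members against 22, 31 and 28. Every TBK1-DKO library thus detected more members than any WT library at both cutoffs as deposited. After all libraries were thinned to the 31077585 reads of the smallest, the numbers with at least 1 read were 51, 54 and 52 in TBK1-DKO and 45, 53 and 51 in WT, and those with at least 10 reads were 26, 33 and 30 against 22, 28 and 27. At equal depth the groups overlapped at both cutoffs. The thinned numbers come from 1 random draw per library, and how far they vary between draws was not tested.

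The members at 0 belonged to 5 H2A, 3 H2B, 1 H3 and 2 H4 genes. Histone genes are near-copies of one another, and reads that align to several places are left out by the counting program, so 50-base windows of each member's transcripts were compared with all other GENCODE transcripts. Genes that overlap the member at its own place were not counted. The median share of windows found in no gene elsewhere was 11.3% for the 11 members at 0, 36.9% for the 24 members with reads but too few to test, and 71.1% for the 33 tested members. With overlapping genes counted as well, the medians were 10.2%, 34.7% and 68.0%. Among the 11 at 0, the share found nowhere else was under 50% for 9. The other two were Hist1h2aa (97.7%, or 76.2% with the overlapping Gm44344 counted) and Hist1h2ba (61.8%), named here after their values were seen. Records with more than 1 alignment, which no gene row counts, made up 6.53%, 6.99% and 6.45% of records in TBK1-DKO 1, 2 and 3. In WT 1, 2 and 3 they made up 5.43%, 5.74% and 5.72%, so the reads lost in this way were more frequent in TBK1-DKO. How many of them came from histone genes was not tested.

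Summed over all members, the histone level did not separate the genotypes. The sums were 177, 199 and 183 CPM in TBK1-DKO 1, 2 and 3 and 173.5, 208 and 204 CPM in WT 1, 2 and 3, or 187 ± 11.5 against 195 ± 19.1 (SD, n = 3 each), a log2 ratio of -0.07. The groups overlapped, and WT 1 was below every TBK1-DKO library while WT 2 and WT 3 were above them all. The H1 genes summed to 94.2, 109 and 101.0 CPM in TBK1-DKO and to 100.5, 123 and 121 CPM in WT, a log2 ratio of -0.18. The H2A sums were 28.6, 31.1 and 29.2 against 25.8, 31.0 and 29.999 CPM (log2 ratio 0.03), and the H2B sums were 35.7, 39.4 and 34.1 against 31.2, 35.2 and 33.6 CPM (log2 ratio 0.13). For H3 they were 5.35, 5.95 and 4.89 against 5.22, 5.14 and 5.89 CPM (log2 ratio -0.005), and for H4 13.5, 13.9 and 13.7 against 10.8, 13.8 and 13.9 CPM (log2 ratio 0.10). The groups overlapped in every class.

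**Figure D1:**
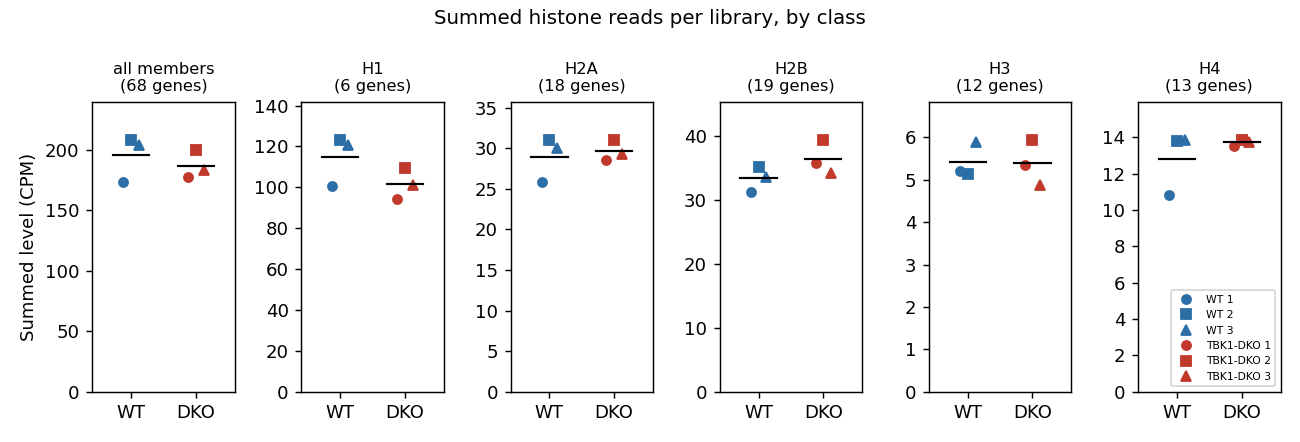
Summed level of the histone genes in CPM, for all 68 members and for each class, with 1 point per library and a bar at the group mean; each panel has its own axis starting at 0. The groups overlap in every panel, and WT 1 (circle) is the lowest WT library for all members together, H1, H2A, H2B and H4.

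A single gene set much of these sums. Hist1h1c, which encodes the H1.2 linker histone, held 48.9% to 51.1% of all member reads in the TBK1-DKO libraries and 54.3% to 55.6% in the WT libraries. The 5 members with the most reads (Hist1h1c, Hist3h2a, Hist1h2bc, Hist2h2be and Hist1h4i) together held 80.9% to 83.3%. Without Hist1h1c the remaining 67 members summed to 90.6, 98.1 and 89.5 CPM in TBK1-DKO and to 79.3, 92.9 and 90.6 CPM in WT, and the log2 ratio turned from -0.07 to 0.08, with the groups still overlapping.

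Of the 68 members, 33 passed the filter on low counts and were tested: 5 H1, 5 H2A, 9 H2B, 7 H3 and 7 H4. A gene was called where its p in edgeR's quasi-likelihood test, adjusted by Benjamini-Hochberg over the 14388 genes that passed the filter, was under 0.05. On that rule 3 members were higher in TBK1-DKO (Hist1h1b, Hist2h2be and Hist3h2ba), 1 was lower (Hist1h2bg) and 29 were not called. The called share was 12.1% of tested members, where 23.6% of all genes tested were called. By direction it was 9.09% higher and 3.03% lower, against 13.7% and 9.90% of all genes. The groups' CPM values did not overlap for 7 members that were higher and 3 that were lower, 30.3% of those tested, against 41.1% of all genes. At an unadjusted p under 0.05 there were 9 of 33 members, against 35.2% of all genes. The median log2 fold change of the 33 tested members was 0.17, with 22 above 0, and that of all genes tested was 0.001.

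**Figure D2:**
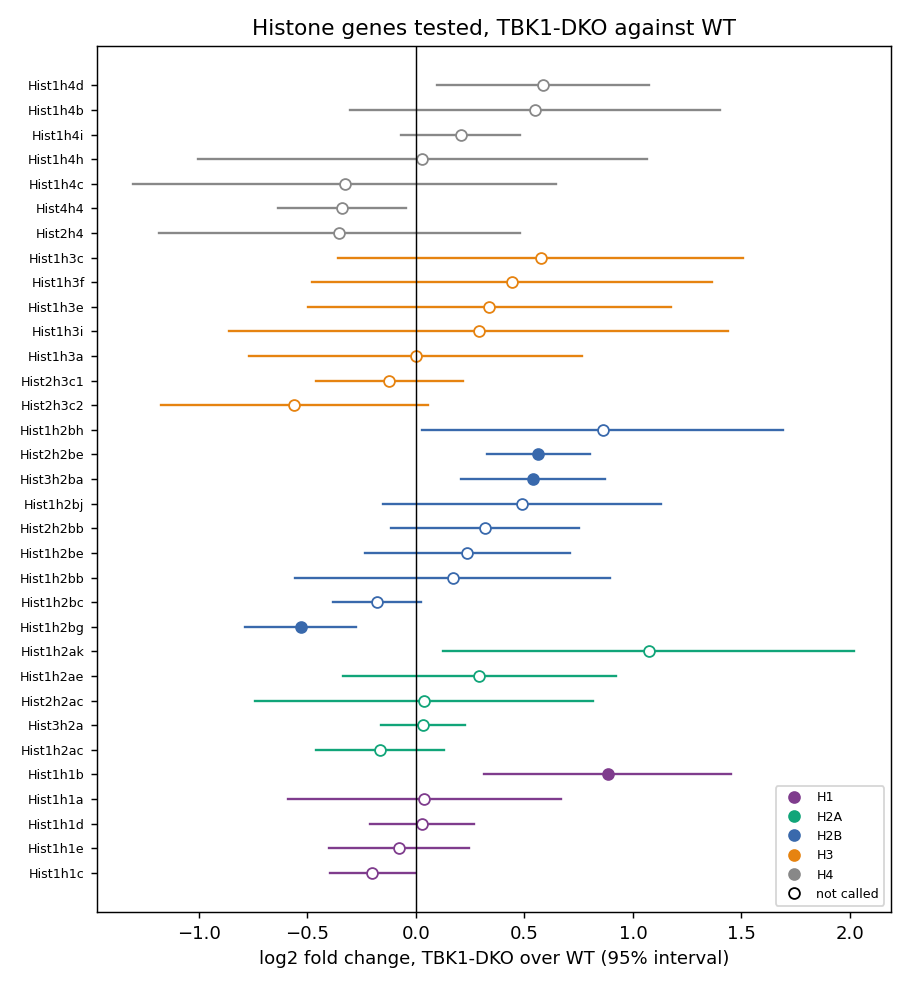
Log2 fold change (TBK1-DKO over WT) of the 33 tested histone genes with 95% intervals, coloured by class; filled points were called at an adjusted p under 0.05. The 3 called H2B genes and the H1 gene Hist1h1b are filled, and many of the H3 and H4 intervals span a log2 unit or more.

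Among the linker histones, Hist1h1b (H1.5, chr13:21779883-21780625, - strand) was the called member. Its levels were 1.29, 0.988 and 1.33 CPM in TBK1-DKO 1, 2 and 3 and 0.413, 0.833 and 0.684 CPM in WT 1, 2 and 3, from 45 to 61 reads and 13 to 30 reads. Every TBK1-DKO library lay above every WT library, with WT 1 the lowest. The log2 fold change was 0.88 (SE 0.26, edgeR adjusted p = 0.031), and all of its 50-base windows were found in no other gene. The call rested on single libraries: edgeR's adjusted p was 0.085, 0.091, 0.090 and 0.081 without TBK1-DKO 1, TBK1-DKO 3, WT 1 and WT 3.

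Hist1h1c (chr13:23738808-23740367, + strand) read 86.7, 101 and 93.4 CPM in TBK1-DKO and 94.2, 116 and 114 CPM in WT, from 2961 to 4617 reads a library. The highest TBK1-DKO library overlapped the lowest WT library, and the gene was not called (log2 fold change -0.20, SE 0.09, edgeR adjusted p = 0.13). It was called lower in 6 of 16 alternatives. These were the fits with length and GC offsets (edgeR adjusted p = 0.0041), with the replicate number as a block (0.021) and with both (2.41e-04), those without TBK1-DKO 2 (0.023) and without WT 1 (0.0235), and the comparison of TBK1-DKO 1 and 3 with WT 2 and 3, where its log2 fold change was -0.36 (adjusted p = 3.87e-13). That last comparison keeps the libraries most alike within each group, which narrows the spread behind its p-values. It called 24.2% of all genes higher and 23.5% lower, against 13.7% and 9.90% in the main fit. The remaining tested H1 genes were not called. Hist1h1d (H1.3) had 3.26, 3.49 and 3.46 CPM against 3.34, 3.44 and 3.24 CPM, with overlapping groups, with a log2 fold change of 0.03 and a 95% interval of -0.21 to 0.27. Hist1h1e (H1.4) had a log2 fold change of -0.08 (edgeR adjusted p = 0.74), and its exons overlap those of Hist1h2be on the same strand, which no strand setting of the counts separates. Hist1h1a (H1.1) had a log2 fold change of 0.04, and Hist1h1t, the testis H1, had 1 or 2 reads in each library and was not tested.

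None of the 5 tested H2A genes was called, and 1 had an unadjusted p under 0.05. Hist3h2a (chr11:58954685-58956830, + strand), the H2A gene with the most reads, had 24.6, 27.0 and 25.1 CPM in TBK1-DKO and 21.8, 26.7 and 26.4 CPM in WT. Its log2 fold change was 0.03 with a 95% interval of -0.16 to 0.23 (edgeR adjusted p = 0.83). Its GENCODE exons overlap Trim17 on the same strand, with 31.5% of its windows shared. Hist1h2ac had 2.16, 1.98 and 2.07 CPM against 2.54, 2.17 and 2.26 CPM, lower in each TBK1-DKO library than in any WT library, but was not called (log2 fold change -0.17, edgeR adjusted p = 0.42). Hist2h2ac had 0.550, 0.636 and 0.511 CPM against 0.286, 0.860 and 0.476 CPM, so the WT libraries spanned all TBK1-DKO values. Hist1h2ak had the largest fold change of the 33 tested members, 1.07 on the log2 scale (SE 0.43, edgeR adjusted p = 0.099), from 15 to 20 reads a library against 3 to 11. Without WT 2 its log2 fold change was 1.77 and it was called higher (edgeR adjusted p = 0.034), and without WT 1 it was 0.80 (0.26). Only 47.7% of the windows of Hist1h2ak were found in no gene elsewhere, and 43.3% were shared with Hist1h2ao. The level of Hist1h2ak is therefore uncertain by the reads of its copies that were not counted.

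The H2B class held 3 of the 4 calls, or 33.3% of its 9 tested genes, against 23.6% of all genes tested. A difference between classes was not tested. Hist2h2be (chr3:96221119-96223738, + strand) had 11.4, 12.2 and 11.1 CPM in TBK1-DKO and 7.19, 9.13 and 7.19 CPM in WT, from 502 to 557 and 226 to 329 reads. All TBK1-DKO libraries were above all WT libraries, and the log2 fold change was 0.56 (SE 0.11, edgeR adjusted p = 0.0036). It was called in all 16 alternatives run, with adjusted p-values of 2.58e-05 to 0.0272, and none of its windows was shared with another gene.

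Hist3h2ba (chr11:58948920-58949533, + strand) had 3.87, 4.83 and 4.33 CPM in TBK1-DKO and 2.39, 3.14 and 3.42 CPM in WT, again without overlap. Its log2 fold change was 0.54 (SE 0.15, edgeR adjusted p = 0.025). The call was lost without TBK1-DKO 2, TBK1-DKO 3, WT 1 or WT 2 (edgeR adjusted p = 0.056, 0.061, 0.072 and 0.074) and in the comparison of TBK1-DKO 1 and 3 with WT 2 and 3 (0.064, log2 fold change 0.31). Of its windows, 22.1% were shared with the pseudogene Hist3h2bb-ps.

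Hist1h2bg (chr13:23571396-23572013, + strand) went the other way, with 2.94, 2.57 and 3.09 CPM in TBK1-DKO and 4.04, 4.14 and 4.25 CPM in WT. The highest TBK1-DKO library was below the lowest WT library, and the log2 fold change was -0.53 (SE 0.12, edgeR adjusted p = 0.0076). It was called lower in all 16 alternatives run, with adjusted p-values of 0.00275 to 0.0282. Only 50.3% of its windows were found in no other gene and 45.0% were shared with Hist1h2bc, so its level is uncertain by the reads of its copies that were not counted.

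Of the H2B members that were not called, Hist1h2bc (chr13:23684199-23692908, + strand) had the most reads, with levels of 12.8, 14.1 and 11.4 CPM in the TBK1-DKO libraries and 14.03, 14.96 and 14.3 CPM in WT. The groups overlapped, since TBK1-DKO 2 lay between the WT libraries (log2 fold change -0.18, SE 0.09, edgeR adjusted p = 0.19). It was called lower in 2 of 16 alternatives, without TBK1-DKO 2 (edgeR adjusted p = 0.027) and with TBK1-DKO 1 and 3 against WT 2 and 3 (0.0016). The latter keeps the libraries most alike within each group and called 23.5% of all genes lower. Hist2h2bb and Hist1h2bh were higher in each TBK1-DKO library than in any WT library but were not called, with log2 fold changes of 0.32 and 0.86 and edgeR adjusted p-values of 0.28 and 0.13. All windows of Hist2h2bb are shared with Gm20628, which overlaps it on the opposite strand, so its reads may not be its own.

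**Figure D3:**
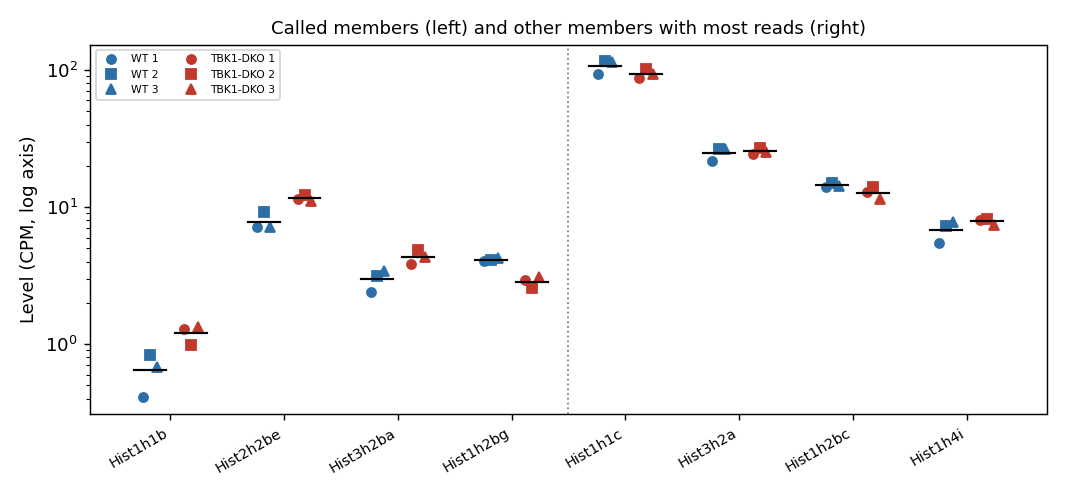
Level of the 4 called histone genes (left) and of the other 4 members with the most reads (right), in CPM on a log axis, with 1 point per library and a bar at the group mean. Hist1h1b, Hist2h2be and Hist3h2ba lie higher in all TBK1-DKO libraries and Hist1h2bg lower, while the groups overlap for the 4 genes on the right.

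No H3 gene was called, and none reached an unadjusted p under 0.05. Hist2h3c1, which had the most reads of the class, had 2.98, 2.79 and 2.20 CPM in TBK1-DKO and 3.08, 2.53 and 3.09 CPM in WT, with overlapping groups and a log2 fold change of -0.12 (95% interval -0.46 to 0.22). All of its windows are shared with Gm20634, a gene that overlaps it on the same strand, so its reads may not be its own. Hist1h3a had 0.465, 0.900 and 0.444 CPM against 0.445, 0.555 and 0.803 CPM, so that TBK1-DKO 2 and WT 3 were both well above the libraries of their own group. Hist1h3i had 8 to 23 reads against 4 to 11 reads, and 79.3% of its windows were shared with Hist1h3h. Over the 7 tested H3 genes the mean level ran from 0.245 to 2.78 CPM, and the median SE of the log2 fold change was 0.37, against 0.19 for the 9 tested H2B genes.

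None of the 7 tested H4 genes was called either, and 2 had an unadjusted p under 0.05, 1 in each direction. Hist1h4i (chr13:22040636-22041362, - strand) led the class with 8.02, 8.21 and 7.46 CPM in TBK1-DKO and 5.50, 7.24 and 7.73 CPM in WT. WT 1 was the lowest, WT 3 lay within the TBK1-DKO range, and the log2 fold change was 0.21 (SE 0.12, edgeR adjusted p = 0.27). Hist4h4 (chr6:136801553-136804415, - strand), the H4 gene apart from the clusters, had 2.79, 2.37 and 2.93 CPM against 3.75, 3.11 and 3.42 CPM, lower in each TBK1-DKO library but not called (log2 fold change -0.34, edgeR adjusted p = 0.093). Hist1h4d had 0.973, 0.966 and 0.911 CPM against 0.477, 0.749 and 0.654 CPM, higher in each TBK1-DKO library but not called (log2 fold change 0.59, SE 0.22, edgeR adjusted p = 0.082). Hist1h4h had 5 to 27 reads in the WT libraries alone, a wider span than the 13 to 27 of TBK1-DKO.

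To compare levels between genes, CPM was divided by the exon length in GENCODE. Averaged over 6 libraries the leading member of each class had 64.6 CPM per kilobase for H1 (Hist1h1c), 11.8 for H2A (Hist3h2a), 11.8 for H2B (Hist1h2bc), 1.52 for H3 (Hist2h3c1) and 10.1 for H4 (Hist1h4i). Next in each class came Hist1h1b (1.24) and Hist1h1e (1.19), Hist2h2ac (1.06) and Hist1h2ac (0.884), Hist3h2ba (5.96) and Hist1h2bg (5.67), Hist1h3a (1.13) and Hist1h3i (0.638), and Hist4h4 (1.07) and Hist1h4h (0.985). These orders depend on the length used. With the RefSeq gene span, Hist1h1c had 139, Hist3h2a 49.7, Hist2h3c1 4.18 and Hist1h4i 18.3 CPM per kilobase and still led their classes, but second place went to Hist1h1d (4.35) in H1 and to Hist1h2ac (4.51) in H2A. RefSeq gives no usable span for Hist1h2bc, and of the other H2B genes Hist3h2ba then led with 7.93.

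Levels were also set beside the annotated end of the transcript. Where a member has several GENCODE models with the stem-loop, the one that reaches furthest past it was used. For 16 members this model runs 151 to 4884 bases past the stem-loop, for 17 it ends 3 to 51 bases after it, and for 35 no model held a match. These ends are those of GENCODE, and the annotation behind the counts was not given. RefSeq ends Hist1h1c at 23739531, Hist3h2a at 58955192 and Hist1h4d at 23581969, within the stem-loop windows shown above. Some models without a match end at the stop codon and could not hold the stem-loop, as for Hist1h1b (743 bases, last coding base 740). Mean levels over 6 libraries had a median of 2.25 CPM (range 0.141 to 101) where the model runs past the stem-loop, 0.0949 CPM (0 to 0.602) where it ends near it, and 0.176 CPM (0 to 13.6) where none was matched. Of these members 15 of 16, 3 of 17 and 15 of 35 passed the filter for testing, and 0, 6 and 5 had 0 reads in all libraries. Per kilobase of GENCODE exon, the medians were 0.850, 0.170 and 0.293 CPM, in the same order. This takes the longer models into account only if the reads were counted over them. Medians over the RefSeq span were not computed, and the part of shared sequence in the order was not tested. The signal AATAAA was found after the coding part in 19 members, of which 13 were tested, and not in 49, of which 20 were tested. The 49 include the pseudogene Hist3h2bb-ps, which has no annotated coding part. The median exon length was 1679 bases with AATAAA and 480 without, and the median levels per kilobase were 0.454 and 0.318 CPM. The part of length in these counts was not tested.

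**Figure D4:**
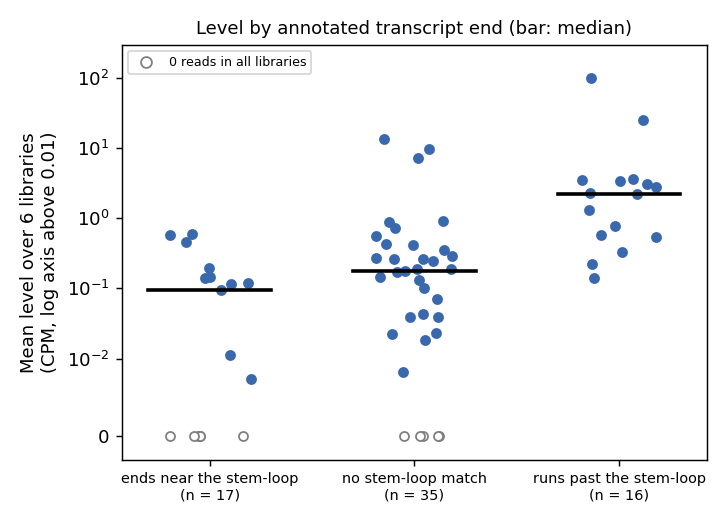
Mean level over 6 libraries of each histone gene, in CPM on an axis that is logarithmic above 0.01, by whether the GENCODE model that reaches furthest past the stem-loop ends within 51 bases of it or runs at least 151 bases past it, or no model holds a match; bars are medians. The medians are 0.0949 (ends near it), 0.176 (no match) and 2.25 (runs past it), and open points mark genes at 0 reads in all libraries. Some models without a match end at the stop codon.

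By genotype, genes with a GENCODE model that runs past the stem-loop summed to 135, 153 and 143 CPM in TBK1-DKO and to 141, 167 and 166 CPM in WT, a log2 ratio of -0.13. Those ending near it summed to 2.18, 3.34 and 2.58 CPM against 1.43, 2.61 and 2.68 CPM, a log2 ratio of 0.27. Those without a match summed to 39.7, 43.1 and 37.4 CPM against 31.4, 38.4 and 35.9 CPM, a log2 ratio of 0.18. The groups overlapped in all 3 sets. The 4 called genes came from the first (Hist1h2bg and Hist3h2ba) and the last (Hist1h1b, whose GENCODE model ends at its stop codon, and Hist2h2be).

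Many H2A and H2B genes stand head to head and share the DNA between their start sites. There were 14 such pairs with starts 173 to 660 bases apart, 13 of them of an H2A and an H2B gene, and in 4 pairs both genes were tested. In 0 of the 4 were both called. Hist2h2ac and Hist2h2be had log2 fold changes of 0.04 and 0.56, Hist1h2ae and Hist1h2bg of 0.29 and -0.53, Hist1h2ac and Hist1h2bc of -0.17 and -0.18, and Hist1h2bh and Hist1h3f of 0.86 and 0.44. The signs were the same in 3 of the 4, and the exception was the pair that holds the called lower gene. In the remaining 10 pairs at least 1 gene was not tested: Hist3h2bb-ps and Hist3h2a, Hist1h2bl and Hist1h2ai, Hist1h2ak and Hist1h2bn, Hist1h2an and Hist1h2bp, Hist1h2bq and Hist1h2ao, Hist1h2ap and Hist1h2br, Hist1h2ah and Hist1h2bk, Hist1h2ag and Hist1h2bj, Hist1h2bf and Hist1h2ad, and Hist1h2ba and Hist1h2aa.

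The DNA between the starts is shown for the pairs that hold Hist2h2be and Hist1h2bg, the members called in opposite directions in all 16 alternatives. It was read from the RefSeq promoter table (GRCm38), on the + strand, 5′ to 3′, at chr3:96220881-96221071 (191 bases, between Hist2h2ac and Hist2h2be) and chr13:23571221-23571395 (175 bases, between Hist1h2ae and Hist1h2bg), with the octamer ATTTGCAT in capitals.
Hist2h2ac to Hist2h2be: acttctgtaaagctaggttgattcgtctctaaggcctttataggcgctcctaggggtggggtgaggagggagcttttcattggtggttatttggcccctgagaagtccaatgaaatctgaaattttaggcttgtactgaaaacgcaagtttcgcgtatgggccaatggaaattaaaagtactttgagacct
Hist1h2ae to Hist1h2bg: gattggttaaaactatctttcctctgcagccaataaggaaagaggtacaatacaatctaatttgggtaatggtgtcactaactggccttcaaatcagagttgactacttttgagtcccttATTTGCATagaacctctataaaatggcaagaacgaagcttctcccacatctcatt
The first stretch ends where the RefSeq transcript of Hist2h2be starts (96221072), and the GENCODE transcript starts later (96221119). ATTTGCAT, the octamer that binds POU factors such as OCT1 (Pou2f1), lies just past that end, at chr3:96221073-96221080, and so is not in the letters shown. Between the GENCODE starts each pair held 1 octamer, counting both strands. In the letters shown, CCAAT occurred 3 and 2 times and TATAAA 1 time in each.

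Across the 62 members with a promoter in the RefSeq table (250 bases before to 50 after the start, both strands), ATTTGCAT was found in 7 of 18 H2A and 6 of 16 H2B promoters and in 0 of the 6 H1, 10 H3 and 12 H4 promoters. Shares were 38.9% and 37.5% in H2A and H2B, where 1.74% of all 32851 promoters in the table held it, and promoters of a head-to-head pair can hold the same copy. CCAAT was found in all H1, H2A, H2B and H3 promoters and in 3 of 12 H4 promoters, against 37.4% of all. TATAAA was found in 35 of 62 (56.5%), against 13.6% of all. Of the called members, Hist1h2bg had the octamer in this window, Hist1h1b and Hist3h2ba did not, and Hist2h2be has no entry in the table. A match is not evidence that a factor binds, and no match says only that these letters are not in the window.

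Genes that act with the histones in S phase were mostly higher in TBK1-DKO. They were counted with the same test, for which 13.7% of all genes were called higher. Of 34 DNA replication genes, 27 were higher and 0 lower, with a median log2 fold change of 0.42. Examples are Rrm2, a subunit of ribonucleotide reductase (0.71, SE 0.06), Uhrf1, which couples DNA methylation to replication (0.62, SE 0.05), the origin licensing factor Cdc6 (0.64, SE 0.06) and the DNA ligase Lig1 (0.54, SE 0.06). Of 24 mitosis genes all 24 were higher, with a median of 0.76, led by p in Ube2c (1.03), Aurkb (0.88), Cdc20 (0.94) and Cdk1 (0.92). The histone reads set against the reads of the DNA replication list were 5.61, 6.16 and 5.88 per 100 in TBK1-DKO 1, 2 and 3 and 7.19, 8.59 and 8.78 per 100 in WT 1, 2 and 3. All TBK1-DKO libraries were below all WT libraries in this ratio, whose denominator did not overlap between the groups while the histone sum did. Summed CPM of the replication list was 3109 to 3238 in TBK1-DKO and 2326 to 2426 in WT.

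Histone variants, most of which carry poly(A) tails and are made outside S phase as well, were higher in 5 of 11 genes and lower in 0, with a median log2 fold change of 0.28. H2afx, the variant marked at DNA breaks, was at 108 ± 3.76 CPM in TBK1-DKO and 64.7 ± 12.7 in WT (SD, n = 3 each), a log2 fold change of 0.74 (edgeR adjusted p = 0.0018). Cenpa, the centromeric H3 (0.52), the linker histone H1fx (1.09), the linker histone H1f0 (0.28) and H2afz (0.33), which encodes H2A.Z, were also called higher. The H3.3 genes were not called: H3f3a was at 1063 ± 76.4 against 1005 ± 7.30 CPM (log2 fold change 0.08) and H3f3b at 807 ± 49.0 against 888 ± 25.4 CPM (log2 fold change -0.14, edgeR adjusted p = 0.17). The count of variants called higher fell to 3 without WT 2. The share of all genes called in that fit was not counted, so the fall is not shown to be particular to the variants.

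Of 19 genes for histone transcription and 3′ end processing, 5 were called higher and 0 lower, with a median log2 fold change of 0.11. Slbp, whose protein binds the stem-loop, was at 131 ± 5.15 CPM in TBK1-DKO and 112 ± 3.36 in WT (log2 fold change 0.23, SE 0.06, edgeR adjusted p = 0.014), a call lost without TBK1-DKO 1, WT 2 or WT 3 (0.055, 0.090 and 0.091). Ccne1 and Ccne2, the E cyclins (0.57 and 0.61), their kinase Cdk2 (0.27) and Upf1, which takes part in histone mRNA decay (0.40), were called higher. Npat, the cyclin E and Cdk2 target that activates histone genes, was not called, at 39.5 ± 4.21 against 35.2 ± 4.96 CPM (log2 fold change 0.17, edgeR adjusted p = 0.31). With length and GC offsets 8 of these genes were higher and 1 lower, where 15.6% of all genes were higher. The share of all genes lower with these offsets was not counted. Of 21 histone chaperones and related genes, 9 were higher and 0 lower, with a median of 0.16. The examples by smallest p were Asf1b (0.68), the chromatin assembly factor subunits Chaf1a (0.57) and Chaf1b (0.41), and Mcm2 (0.42), which carries parental histones at the fork and is counted in the replication list too. The chaperone count fell to 4 without TBK1-DKO 1, TBK1-DKO 3 or WT 2 and to 5 without WT 3. The shares of all genes called in those fits were not counted, so the fall is not shown to be particular to this list.

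Other RNAs that mostly lack a poly(A) tail (small nucleolar RNAs and similar species, 127 rows) gave 28 genes to test, with 0 called higher and 2 lower, Snora75 (log2 fold change -1.71) and Snord17 (-0.81), against 9.90% of all genes called lower. Their median log2 fold change was -0.11, and 72 rows had 0 reads in all libraries. In sum they held 27.98, 27.85 and 29.47 CPM in TBK1-DKO and 31.4, 32.9 and 29.6 CPM in WT, so that all TBK1-DKO libraries were lower, by little for TBK1-DKO 3 against WT 3. Levels of such RNAs depend on the library type, as those of histones do.

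**Figure D5:**
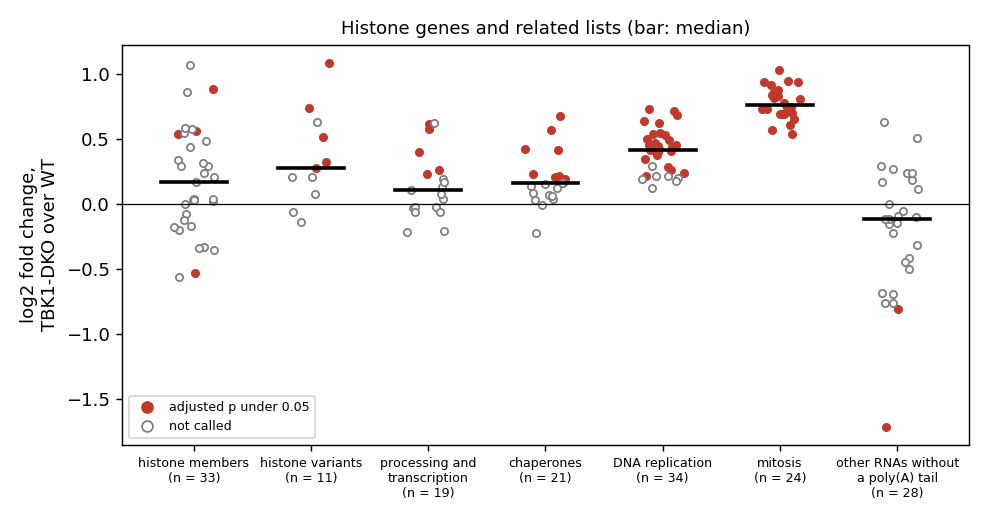
Log2 fold change (TBK1-DKO over WT) of each tested gene in the histone members and 6 related lists, with 1 point per gene, filled where the adjusted p was under 0.05, and a bar at the median. The medians are 0.17 for the histone members, 0.42 for DNA replication and 0.76 for mitosis.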

How the data were processed

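RNA-seq counts were analysed for 3 TBK1-DKO and 3 WT libraries. The deposited values are whole-number counts of reads per gene symbol, neither scaled nor pooled, with 23420 gene rows in each file. TopHat2, TopHat, HTSeq and DESeq2 are named in the submitters' processing notes, without roles, beside the mm10 build. Tool versions, strand setting and gene annotation were not given in the sources used here. HTSeq, in its default setting, leaves out reads with more than 1 alignment or more than 1 gene, which lowers histone genes with close copies. The 5 summary rows, kept out of library sizes and tests, held 9.96% to 10.7% of records in TBK1-DKO and 8.20% to 8.67% in WT.

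Counts were fitted over the whole table with edgeR 4.0.16 in R 4.3.3 (filterByExpr with a minimum count of 10, TMM factors, robust quasi-likelihood F test without covariates, Benjamini-Hochberg adjustment over 14388 genes). CPM are counts per 1000000 effective reads. Sums over members keep those under the filter and have no test. Depth limits low members: 9 of the 33 tested had fewer than 100 reads in all libraries together, and floors cover counting error only. The code was tested on simulated data.

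Annotation and sequences came from GENCODE M21 and RefSeq, both on GRCm38, and all 68 members matched GENCODE by name. Members, lists and tests were chosen with earlier results of these data known. Members named are the 3 with the highest CPM per kilobase of each class, all called members and the divergent pairs, plus up to 4 genes of each list by p and Slbp, Npat, H2afz, H2afx, H3f3a, H3f3b and H1f0. Other members that are named were added after their values were seen. Alternatives were DESeq2 1.42.0, limma-voom (limma 3.58.1), RLE and upper-quartile factors, no filter, a minimum count of 50, a replicate block, length and GC offsets, leaving out each library, TBK1-DKO 1 and 3 against WT 2 and 3, and an adjusted p under 0.01. Figures were drawn with matplotlib 3.10.9.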

Additional observations from a re-analysis of the deposited data

Results flagged for a closer look

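Records with more than 1 alignment, which the comparisons of the report leave out, made up 6.655% of records on average in the TBK1-DKO libraries (SD 0.293, n = 3), above the 5.63% of the WT controls (SD 0.173, n = 3), without overlap between the groups. Records overlapping several genes made up 2.83% (SD 0.138) and 2.32% (SD 0.0842). Which genes these records came from, and so their part in the histone counts, was not tested.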

How the results depend on the processing

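The 3 members called higher and the 1 called lower were the same genes with DESeq2, limma-voom, RLE factors, upper-quartile factors and no filter on low counts. With a minimum count of 50, 12 members were tested and 2 were higher and 1 lower, since Hist1h1b was no longer tested. At an adjusted p under 0.01 the count called higher was 1. Leaving out each library in turn gave 1 to 3 called higher and 1 to 3 called lower. With TBK1-DKO 1 and 3 against WT 2 and 3, a choice that leaves out the libraries that stood apart, 2 of 33 were higher and 3 lower, where 24.2% and 23.5% of all genes were. With length and GC offsets 3 were higher, where 15.6% of all genes were, and 2 were lower, Hist1h1c being the addition. The share of all genes lower with these offsets was not counted, nor were the shares called in the other alternatives. Their counts, also those with a library left out, are therefore not shown to be particular to the histone genes. The summed level of replication-dependent histone genes had log2 ratios of -0.145 to -0.0177 with each library left out, -0.196 with TBK1-DKO 1 and 3 against WT 2 and 3, and 0.0825 without the member with the most reads, which held 48.9% to 55.6% of the reads. The mean difference in detected members fell from 5 to 2.67 when libraries were thinned, in 1 random draw per library. Over the 45 genes of the naming rule, 718 of 755 values kept their direction and side of the threshold, 23 lost the call, 14 gained one and 0 reversed. The causes were not tested.

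The replicate numbers are not stated to pair the libraries, and deviations from the group means correlated at 0.182, 0.149 and -0.065 for numbers 1, 2 and 3, so the numbers were not taken as pairs. With the replicate number as a block, 3 members were called higher and 2 lower, and 2 were lower with the block and the length and GC offsets together. The shares of all genes called with the block were not counted.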
